A study of Mus musculus with 54 samples.

Results

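Alpha-defensins, called cryptdins in the mouse intestine, are small cysteine-rich antimicrobial peptides that Paneth cells store in granules and release into the crypt lumen. Each gene encodes a signal peptide, an acidic propiece and, at its 3′ end, the mature peptide, which the metalloprotease Mmp7 frees from the propiece in mice. The genes lie in a tandem cluster of near-identical copies, and Wnt signals acting through TCF factors are known to drive Paneth cell genes, defensins among them. The members described here are all genes whose symbol starts with Defa. The mRNA table held 39 of them among 47996 gene symbols, 22 named as genes and 17 named as pseudogenes ("ps" in the symbol). The single-cell files held 13 Defa symbols among 27998 genes, and all 13 matched a member of the mRNA table by gene identifier (Defa-rs7 is Defa31 there). The other 9 members named as genes were present in the single-cell files under Gm symbols, so that all 22 could be followed in both.

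The series compared mouse small intestine between conditions linked to miR-375, a microRNA. The mRNA libraries came from crypt cells of C57BL/6J mice sorted for a low signal of a Sox9-EGFP reporter, a gate known to enrich stem cells. They fell into 4 groups of 4 libraries each, namely chow-fed mice (chow), mice fed a high fat diet (HFD), conventionalized mice (CV) and germ-free mice (GF). Conventionalized mice are, as a rule, germ-free mice that were then colonized with microbes. The labels give no age, sex or duration of diet for these 16 mice. The single-cell libraries came from intestinal cells of 12-month-old mice, either wild type (WT) or lacking miR-375 (KO), of a strain labelled C57BL6/2J, with 1 library of each genotype in set 1 and 1 in set 2. Nothing in the labels says how many mice made up a library, so that p-values measure only the spread between these libraries.

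The mRNA libraries held 10688863 (GF mouse 3) to 19124357 (HFD mouse 1) summed normalized counts. Lgr5, a stem cell marker, was present in all 16 at 378 to 5167 normalized counts and Sox9 at 2146 to 6705. All 8 Paneth markers examined were present too, with a summed level of 17768 to 225123 normalized counts. Markers of other cell types were also present. The 8 goblet markers summed to 19857 (CV mouse 2) to 600823 (CV mouse 1) normalized counts. The 8 enteroendocrine markers summed to 33074 (HFD mouse 1) to 802712 (chow mouse 3). In sorted bulk cells, fewer Paneth cells and less defensin RNA per Paneth cell cannot be told apart. The small RNA column names give the diets of chow mouse 3 and HFD mouse 3 the other way round; the sample labels were followed, and the diet and CV against chow results are also given with these mice exchanged. Mir375 has no row in the single-cell files, so the knockout was not checked there.

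The 22 coding members lie on mouse chromosome 8 (GRCm38), chr8:21025545-21735471, a stretch of 709.9 kb. Their last 120 coding bases, which hold most of the mature peptide, formed 15 distinct sequences, and 5 of these were shared by 12 members. Linking members whose ends differ at no more than 12 of 120 bases (10%), counted without gaps, gave 4 families of more than 1 member, while 4 members stood alone, among them Defa25, Defa27 and Defa28. A link to any member was enough to join a family. Defa26 thus belongs to the Defa24 family through members such as Defa17 (7 differing bases), although it differs from Defa24 at 15. The ends, other than those of Defa26 and Defa35, are shown because the families were formed from them. In the Defa24 family (7 members) capitals mark bases that differ from Defa24; the end of Defa31 is also that of Defa23, and the end of Defa17 is also that of Defa3.
Defa24: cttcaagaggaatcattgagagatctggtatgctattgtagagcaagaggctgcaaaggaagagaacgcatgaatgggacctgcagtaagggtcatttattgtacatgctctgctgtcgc
Defa30: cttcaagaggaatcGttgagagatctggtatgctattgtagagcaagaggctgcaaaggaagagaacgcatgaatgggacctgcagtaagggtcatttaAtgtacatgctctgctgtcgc
Defa31: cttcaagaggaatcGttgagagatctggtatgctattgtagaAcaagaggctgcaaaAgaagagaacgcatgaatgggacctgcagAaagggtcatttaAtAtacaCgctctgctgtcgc
Defa17: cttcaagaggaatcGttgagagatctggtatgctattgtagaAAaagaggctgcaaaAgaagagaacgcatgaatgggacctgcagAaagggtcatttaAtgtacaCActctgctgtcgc

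In the Defa21 family (2 members) the pair differed at 1 base, in capitals against Defa22. In the Defa20 family the ends of all 4 members (Defa2, Defa20, Defa32 and Defa33) were identical. In the Defa5 family (5 members) Defa36 had the same end as Defa37, Defa34 the same end as Defa5, and the capital marks the difference from Defa37.
Defa22: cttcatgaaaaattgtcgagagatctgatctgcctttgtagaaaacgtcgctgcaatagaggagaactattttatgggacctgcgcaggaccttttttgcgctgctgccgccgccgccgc
Defa21: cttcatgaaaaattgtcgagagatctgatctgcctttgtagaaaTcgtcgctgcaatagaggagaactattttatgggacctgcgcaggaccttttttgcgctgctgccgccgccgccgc
Defa20: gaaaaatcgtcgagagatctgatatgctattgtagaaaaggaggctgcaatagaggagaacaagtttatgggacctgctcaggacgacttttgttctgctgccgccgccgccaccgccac
Defa37: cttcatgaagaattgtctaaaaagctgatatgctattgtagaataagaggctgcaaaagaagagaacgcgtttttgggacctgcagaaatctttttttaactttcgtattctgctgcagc
Defa5: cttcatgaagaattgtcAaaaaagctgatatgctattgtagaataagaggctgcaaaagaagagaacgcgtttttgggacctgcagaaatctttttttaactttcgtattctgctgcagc

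Single-cell libraries of this kind read the 3′ end of a transcript. Of the 90-base windows in the last 300 transcript bases, 100% were found in no other gene for Defa24, 98.6% for Defa30 and 93.8% for Defa26. The share was 61.1% for both Defa21 and Defa22 and 13.3% for both Defa17 and Defa3. No window was its own in 7 of the 22 coding members, and 10 had at most 1 window of their own, among them Defa2, Defa20, Defa23 and Defa31. Values of these members rest on how reads that match several copies were treated and are uncertain for single genes.

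RefSeq promoters (GRCm38.p6), windows of 300 bases that end shortly after the transcription start, were on hand for 12 members. The TCF-type motif ATCAAAG, searched on both strands, was in 12 of 12, against 3.73% of all 32851 promoters in the table. TATAAA was in 11 of 12 (all but Defa28), against 13.6% of all promoters. TTTATG was in 0 of 12, against 11.9%. The 12 promoters are not independent of each other. The windows of Defa2 and Defa20 are identical, as are those of Defa21 and Defa22, Defa23 and Defa31, and Defa36 and Defa37. The percentages of all promoters are therefore only a rough background. The promoters of Defa20 and Defa30 are shown as examples of the Defa20 and Defa24 families, with ATCAAAG and TATAAA in capitals. The shares of the defensin signal held by these families, not their levels, parted between GF and CV mice. A match is a string of letters, not a measured binding site.
Defa20, chr8:21509008-21509307, plus strand: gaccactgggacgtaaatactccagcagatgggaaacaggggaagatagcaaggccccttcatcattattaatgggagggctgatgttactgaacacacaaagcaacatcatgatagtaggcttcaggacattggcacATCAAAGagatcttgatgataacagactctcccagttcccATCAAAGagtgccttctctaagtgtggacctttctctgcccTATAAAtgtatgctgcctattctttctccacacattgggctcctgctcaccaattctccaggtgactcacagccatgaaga
Defa30, chr8:21134400-21134699, plus strand: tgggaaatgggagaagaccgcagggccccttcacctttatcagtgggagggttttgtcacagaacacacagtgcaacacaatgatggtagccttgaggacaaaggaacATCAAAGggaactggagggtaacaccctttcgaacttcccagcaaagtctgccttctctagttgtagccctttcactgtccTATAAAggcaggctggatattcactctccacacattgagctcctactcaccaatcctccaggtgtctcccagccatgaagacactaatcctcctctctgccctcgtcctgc

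Defa24 was the most abundant member of the mRNA table, with a mean of 117371 normalized counts over the 16 libraries and 280123 per kb of exon. Per kb, Defa30 (101983) and Defa17 (101514) followed, then Defa31 (63117), Defa20 (59261), Defa23 (42938), Defa22 (33639) and Defa2 (31999). Defa24 was above Defa30 in each of the 16 libraries, whereas Defa30 and Defa17 changed places from library to library, and over all libraries the levels of neighbours in this order overlapped. Of the 39 members, 25 had a mean of at least 10 over all 16 libraries, 21 of them coding genes and 4 pseudogenes. The most abundant pseudogene, Defa-ps6, had a mean of 77.1, and 3 pseudogenes (Defa-ps11, Defa-ps13 and Defa-ps15) were at 0 in every library.

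The members rose and fell together from mouse to mouse. Over the 16 libraries, Pearson's r of log2(value + 1) between pairs of the 25 members ranged from 0.72 to 1.00 with a median of 0.92, a description in which the libraries share depth and their content of Paneth cells. Summed over all members, alpha-defensins made up 6.56%, 4.30%, 0.84% and 0.57% of the named-gene signal in the chow mice 1 to 4. The shares were 4.73%, 5.66%, 1.95% and 1.97% in the HFD mice, 0.58%, 1.47%, 1.36% and 0.95% in the CV mice, and 1.89%, 1.54%, 0.44% and 0.46% in the GF mice. In chow, HFD and GF the first 2 mice were several times above the last 2. In the mRNA table, the column names of chow and HFD mice 1 and 2 hold numbers in the 180s. Those of mice 3 and 4 hold numbers in the 240s. The labels do not say what these numbers stand for.

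**Figure D1:**
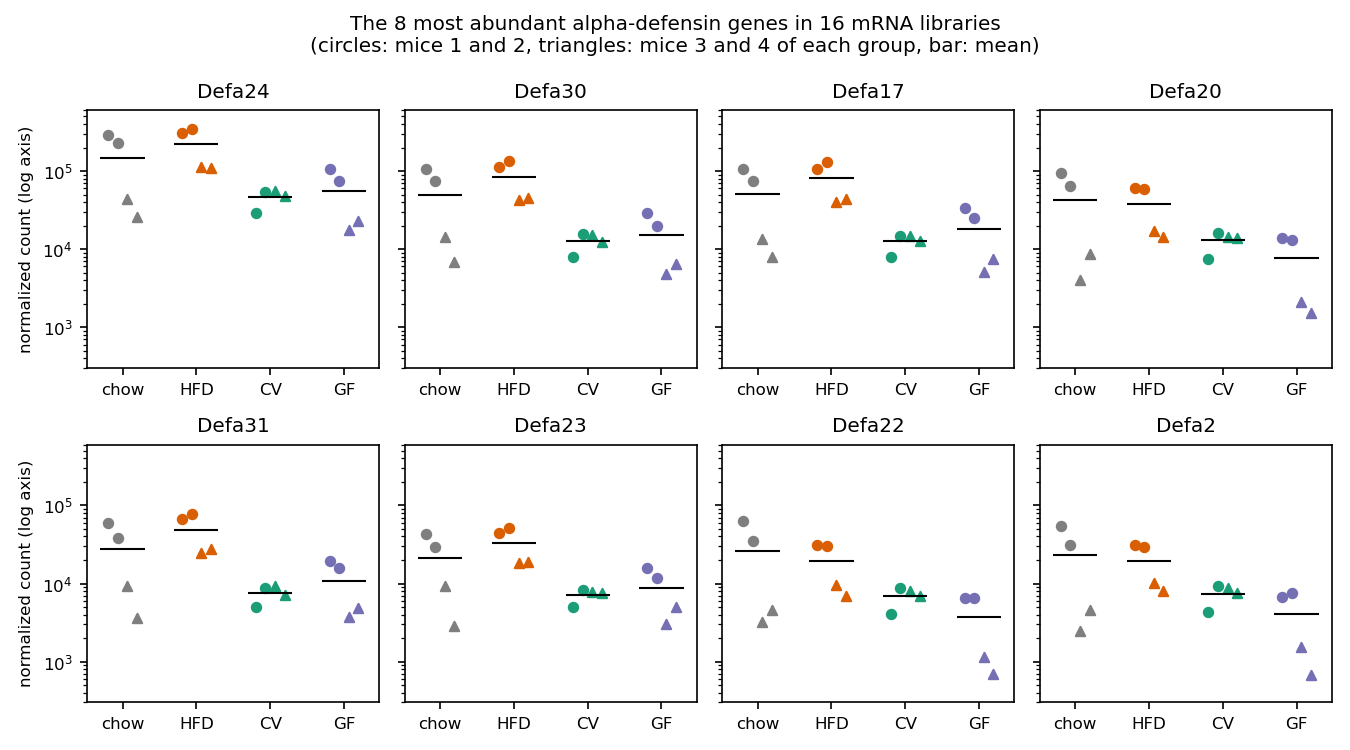
Normalized counts (log axis) of the 8 most abundant members in each of the 16 mRNA libraries by group, with the group mean as a bar. Circles are mice 1 and 2 and triangles mice 3 and 4 of a group; Defa24 ran from 17846 in GF mouse 3 to 348675 in HFD mouse 2, and GF overlaps CV, HFD overlaps chow and CV overlaps chow for every gene shown.

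The 10 genes outside the list whose log2 level followed the summed defensin level most closely over the 16 libraries, among 10714 genes with a mean of at least 100, were Gm7849 (r = 0.99), AY761184 (0.99), Gm14851 (0.99), Gm7861 (0.99), Gm15292 (0.98), Lyz1 (0.98), Itln1 (0.97), Gm15293 (0.96), Ang4 (0.94) and Clps (0.94). Lyz1 is the Paneth cell lysozyme, Itln1 an intelectin and Ang4 an antimicrobial ribonuclease. The Gm genes and AY761184 are alpha-defensin genes by RefSeq name (Defa38 to Defa43) that the Defa symbols of these files do not cover. Lyz1 stood at 9.56 to 22.2 counts per 100 defensin counts over all libraries.

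Germ-free mice were set against conventionalized mice to ask what microbes change in these cells. Defa24 was at 28911, 54361, 56095 and 47987 normalized counts in the CV mice and at 104743, 75453, 17846 and 22856 in the GF mice. GF mice 1 and 2 lay above all CV mice and GF mice 3 and 4 below them, so that the groups overlapped. Its log2 difference was -0.10 ± 0.60 (SE, limma, n = 4 and 4, adjusted p = 0.93). Defa20 was at 7433, 16243, 14264 and 13945 in the CV mice and at 13948, 13072, 2124 and 1512 in the GF mice. Here GF mice 3 and 4 were below every CV mouse, while GF mice 1 and 2 lay within the CV range. The log2 difference was -1.34 ± 0.66 (adjusted p = 0.27 by limma). Defa34 had the lowest log2 difference, -2.57 ± 1.06 (adjusted p = 0.22 by limma), with 354, 659, 577 and 536 counts in CV and 439, 551, 26.6 and 7.82 in GF.

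With limma on all 20214 genes that had a mean of at least 10, 2.24% of genes were called between GF and CV at an adjusted p under 0.05 and 0 of 21 tested members were. At an unadjusted p under 0.05, 6 of 21 members and 20.1% of all genes passed. The levels did not overlap between the groups for 0 of 21 members, beside 12.5% of all genes. The median log2 difference of the 21 members was -1.03, beside 0.11 for all genes tested. The families parted. In the Defa24 family 4 of 7 members were above 0 and 3 below, within -0.10 to 0.22. All 14 other tested members were below 0, from -0.47 to -2.57, with medians of -1.42 in the Defa20 family, -1.53 in the Defa21 family and -1.05 in the Defa5 family. Without GF mouse 3 the median of the members was -0.54, and without GF mouse 1 it was -1.53.

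**Figure D2:**
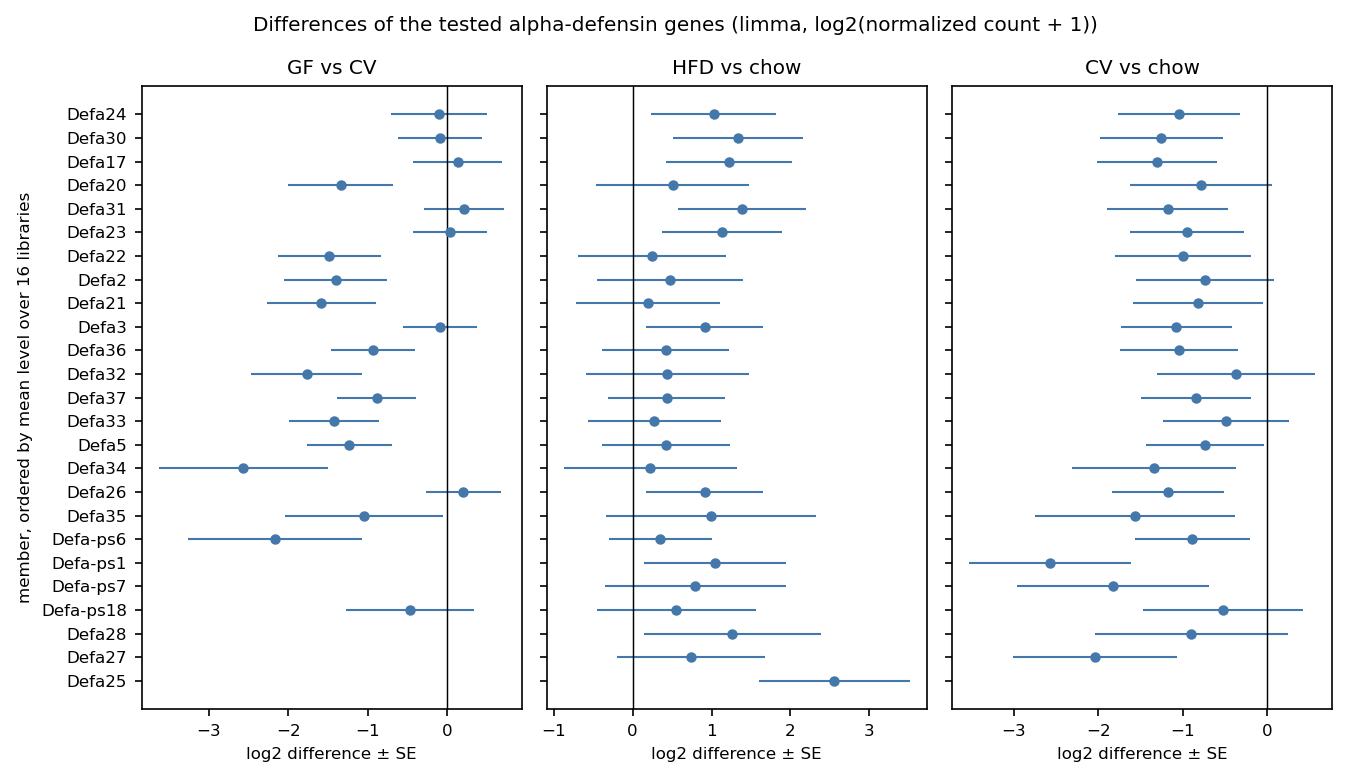
Log2 difference with its standard error (limma) for the tested members reported by name in the 3 mRNA comparisons, ordered by mean level. In GF vs CV the 7 members of the Defa24 family lie near 0 and the others below 0, in HFD vs chow all points lie above 0, in CV vs chow all lie below 0, and no member was called.

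The make-up of the defensin signal separated GF from CV mice where the levels did not. Defa20 was 8.23% to 9.28% of summed Defa counts in the CV mice and 2.70% to 6.28% in the GF mice, and Defa24 was 30.9% to 33.0% against 36.3% to 40.8%. As a ratio, there were 25.7, 29.9, 25.4 and 29.1 Defa20 counts per 100 Defa24 counts in the CV mice and 13.3, 17.3, 11.9 and 6.62 in the GF mice. Every GF mouse, those with high and those with low defensin levels, was below every CV mouse in this ratio. The share of summed Defa did not overlap between GF and CV for 17 of 21 tested members, 6 higher and 11 lower in GF, beside 3.53% of all genes tested when each was divided by the same sum. Shares of a sum are tied to each other, and the other genes are divided by a sum they are not part of, so this percentage is only a rough background. The 6 higher members (Defa24, Defa30, Defa17, Defa31, Defa23 and Defa26) all belong to the Defa24 family, of which only Defa3 overlapped. The lower members included all of the Defa20 and Defa21 families and the Defa5 family other than Defa35. By family, the Defa24 family held 61.2% to 64.2% of the sum in CV and 74.8% to 87.8% in GF, and the Defa20 family 17.5% to 20.2% against 5.15% to 12.7%.

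**Figure D3:**
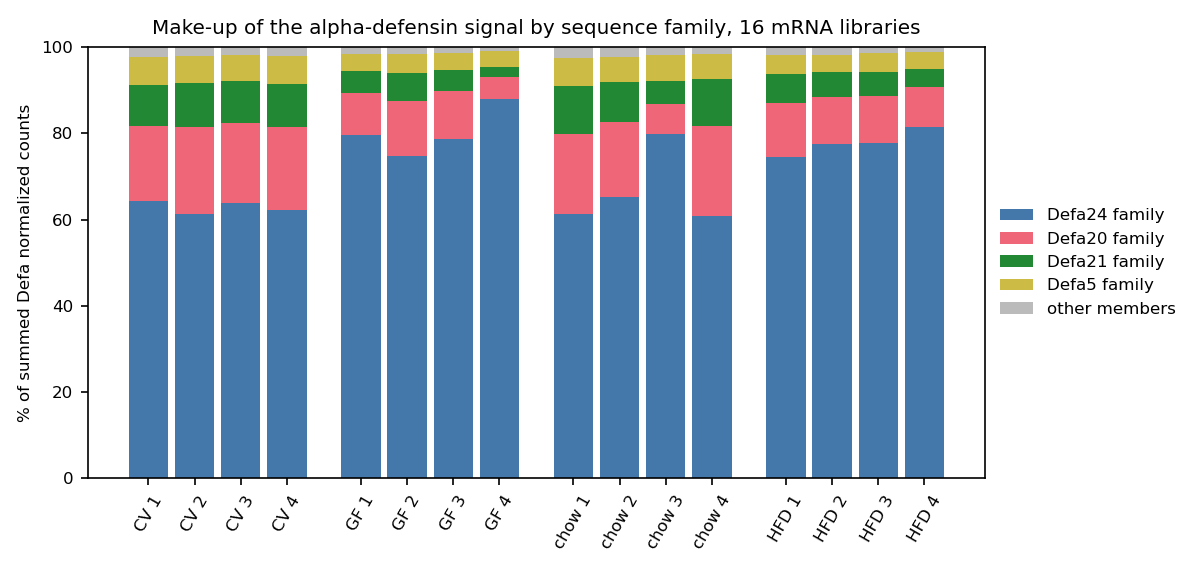
Percent of summed Defa normalized counts held by each sequence family in the 16 mRNA libraries. The Defa24 family holds 61.2% to 64.2% in the 4 CV mice and 74.8% to 87.8% in the 4 GF mice; chow mouse 3, at 79.7%, lies with the HFD and GF mice, while chow mice 1, 2 and 4 lie at 60.7% to 65.3%.

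Among other antimicrobial genes of the gut, 2 of 14 tested members fell in GF against CV mice and 0 rose. Reg3b, a bactericidal C-type lectin, was at 57444, 10576, 3907 and 25860 counts in CV and at 512, 341, 24.3 and 39.8 in GF (log2 difference -7.08 ± 0.97, adjusted p = 0.013 by limma). Reg3g, its close relative, was at 35649, 5996, 2730 and 14588 in CV and at 764, 661, 244 and 289 in GF (-4.46 ± 0.66, adjusted p = 0.013 by limma). Neither lectin had a GF value that reached any CV value; without GF mouse 1 Reg3g missed the threshold (adjusted p = 0.052 by limma). Of 13 tested genes for Paneth granule proteins 0 were called, and Lyz1 differed by -0.21 ± 0.45 (adjusted p = 0.79), Mmp7 by -0.82 ± 0.36 (0.23), Ang4 by -0.75 ± 0.40 (0.30) and Itln1 by -0.31 ± 0.46 (0.69), all by limma. Mptx2, a mucosal pentraxin of Paneth cells, differed by -3.09 ± 0.82 and missed the threshold (adjusted p = 0.079 by limma). Of 24 genes for Paneth cell formation and secretion 1 rose, the Notch ligand Dll4 (1.38 ± 0.31, adjusted p = 0.036), a call lost in 6 of the 8 fits without 1 library.

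Other cell types moved between these groups as well. All 8 stem cell markers were below 0 in GF against CV mice, with 0 called, and all 8 cycling markers were below 0, of which Mki67 and Cdk1 were called. All 8 enteroendocrine markers were above 0, of which Neurod1 and Tph1 were called, and all 8 tuft cell markers were above 0 with 0 called. Of the stromal or endothelial markers 5 were tested, all above 0 with a median of 2.08, and the endothelial gene Pecam1 was called. Of 8 enterocyte markers 3 were above 0, of which Sis was called, and 3 of 8 Paneth and 4 of 8 goblet markers were above 0 with 0 called. The tested T lymphocyte markers (4 of 4 above 0), B lymphocyte or plasma markers (2 of 4) and myeloid markers (2 of 6) had 0 called. The summed level of the 8 stem cell markers was 38098 to 64719 in GF mice 1, 2 and 4 and 11444 in GF mouse 3, against 55603 to 114582 in CV. Their part in the defensin values was not tested.

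High fat diet was set against chow to ask what diet changes in these cells. Defa24 was at 290786, 228233, 44478 and 26003 normalized counts in the chow mice and at 311203, 348675, 111452 and 108859 in the HFD mice. The HFD mice were above the chow mice of the same number series, but the groups overlapped over all 8 mice (log2 difference 1.03 ± 0.80, n = 4 and 4, adjusted p = 0.45 by limma). Defa30 differed by 1.33 ± 0.83 (adjusted p = 0.34 by limma) and Defa20 by 0.51 ± 0.97 (0.79). Defa25 had the highest difference, 2.55 ± 0.95 (adjusted p = 0.13 by limma), at 0, 16.8, 0 and 3.25 counts in chow and 23.2, 30.7, 8.43 and 11.5 in HFD. By limma, 0 of 26 tested members were called, beside 0.822% of 16421 genes. At an unadjusted p under 0.05, 1 of 26 members and 26.7% of all genes passed. The levels did not overlap between all 8 mice for 0 of 26 members, beside 16.2% of all genes. All 26 members were above 0, with a median of 0.65 beside 0.05 for all genes tested. Without chow mouse 2, 1 of 26 members, Defa25, was called (log2 difference 3.42, adjusted p = 0.028 by limma).

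The comparison came out differently by number series. Among the mice of the 240s, both HFD mice were above both chow mice for 26 of 26 members, beside 33.2% of all genes, with a median log2 difference of 1.61. Among the mice of the 180s this held for 6 of 26, beside 27.3% of all genes, and the median was -0.29. In the 180s Defa24 still differed by 0.35 and Defa30 by 0.50, whereas Defa20 differed by -0.38. With the series as a block in the limma fit, 0 of 26 members were called and the lowest adjusted p was 0.051. With chow mouse 3 and HFD mouse 3 exchanged, the median of the members was -0.00045, and 13 of 26 were above 0. Among the mice of the 240s, the exchange left both HFD mice above both chow mice for 0 of 26 members, beside 10.3% of all genes, with a median of 0.25.

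The make-up of the signal differed by diet in most mice. There were 32.3, 27.9, 9.16 and 33.0 Defa20 counts per 100 Defa24 counts in the chow mice and 19.5, 16.7, 15.1 and 13.2 in the HFD mice. Chow mouse 3 lay below all HFD mice and the other 3 chow mice above them. The share of summed Defa did not overlap between HFD and chow for 5 of 26 members, beside 0.384% of all genes divided by the same sum: Defa30 and Defa17 were higher in HFD, and Defa36, Defa37 and Defa5 lower. Without chow mouse 3 alone the count was 15 of 26, beside 0.524% of all genes, and without both mice 3 it was also 15, beside 0.98%. With these mice exchanged it was 1 of 26, beside 0.0304%. The Paneth genes Lyz1 (0.60 ± 0.70, adjusted p = 0.64 by limma) and Mmp7 (-0.27 ± 0.37, adjusted p = 0.70) were not called, and of 13 tested granule protein genes 0 were. Of the other antimicrobials Nos2, the inducible nitric oxide synthase, fell (-2.89 ± 0.37, adjusted p = 0.028), and of the genes for Paneth cell formation the receptor Kit fell (-1.27 ± 0.24, adjusted p = 0.048); Kit was called in 1 and Nos2 in 2 of the 8 fits without 1 library. Mptx2 differed by -1.68 ± 0.70 (adjusted p = 0.16 by limma), Ang4 by 0.52 ± 0.63 (0.65) and Itln1 by 0.59 ± 0.62 (0.59).

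Markers of other cell types differed by diet too. All 8 tuft cell markers were below 0 (median -2.31) and 4 fell. All 8 enteroendocrine markers were below 0 (median -2.01), while all 8 goblet (0.81) and all 8 cycling markers (0.86) and 7 of 8 enterocyte markers (0.98) were above 0. Of the Paneth and stem cell markers 5 of 8 each were above 0, with medians of 0.53 and 0.08. None of these other classes had a called marker, nor did the 9 tested markers of lymphocytes, myeloid and stromal cells, of which 2 were above 0. Their part in the defensin values was not tested.

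Conventionalized mice were also set against chow mice raised conventionally, which share the chow libraries with the diet comparison and the CV libraries with the germ-free comparison. Defa24 differed by -1.05 ± 0.72 (n = 4 and 4, adjusted p = 0.59 by limma). The CV values lay below those of chow mice 1 and 2 and overlapped those of chow mice 3 and 4. All 25 tested members were below 0, with a median of -1.05 beside 0.04 for all genes tested. By limma 0 of 25 were called, beside 0.0948% of 17941 genes, and 1 of 25 had an unadjusted p under 0.05, beside 11.2% of all genes. The levels did not overlap for 0 of 25 members, beside 6.55% of all genes. The member under that threshold was Defa-ps1, with the lowest log2 difference (-2.57 ± 0.96, adjusted p = 0.36), at 137, 101, 13.0 and 5.69 counts in chow and 3.42, 3.20, 8.36 and 5.10 in CV. With the chow mice of the 180s left out, all 21 members tested were above 0 (median 0.72), and 0 were called. The share of summed Defa did not overlap for 4 of 25 members, beside 0.530% of all genes: Defa5 was higher in CV, and Defa17, Defa27 and Defa-ps1 were lower. Without chow mouse 3 the count was 7, beside 1.22% of all genes, and without chow mouse 4 it was 7 as well, beside 9.61%. With HFD mouse 3 in the place of chow mouse 3, after the small RNA column names, it was 4, beside 1.11%. In that fit all 25 members were below 0 (median -1.38), 0 were called by limma, and 9 of 25 had an unadjusted p under 0.05, beside 9.49% of all genes. Of the 13 granule protein genes, 24 genes for Paneth cell formation and secretion and 14 other antimicrobials tested, 0 were called by limma in CV against chow. Lyz1 differed by -0.93 ± 0.59 (adjusted p = 0.56 by limma), Mmp7 by -0.78 ± 0.29 (0.35), Ang4 by -0.41 ± 0.51 (0.77), Itln1 by -0.61 ± 0.53 (0.67) and Mptx2 by 0.15 ± 0.67 (0.95). Of the cell type markers 0 were called. All 8 tuft (median -2.30), enteroendocrine (-1.45) and goblet markers (-0.37) were below 0, as were 7 of 8 enterocyte markers (-0.97) and 6 of 8 Paneth markers (-0.62). All 8 cycling markers (0.39) and 6 of 8 stem cell markers (0.26) were above 0. The part of these cell types in the defensin values was not tested.

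In single cells the members were read in cells whose Defa symbols and Lyz1 made up at least 10% of UMIs, the unique molecule counts. Paneth cells were the target of this rule, and 521 of 9156 kept cells passed it. The cells over the gate numbered 90 of 1197 in WT set 1 (7.52%, exact 95% binomial interval 6.09% to 9.16%), 84 of 3363 in WT set 2 (2.50%, 2.00% to 3.08%), 90 of 1241 in KO set 1 (7.25%, 5.87% to 8.84%) and 257 of 3355 in KO set 2 (7.66%, 6.78% to 8.61%). WT set 2 stood below the other 3 libraries. The mean was 7.46% ± 0.29 (SD, n = 2) in KO and 5.01% ± 3.55 (SD, n = 2) in WT (exact permutation test, two-sided, p = 0.67; the smallest p this design allows is 0.33). Over all barcodes the shares were 7.44%, 2.00%, 7.43% and 4.38% in the same order, with means of 5.91% ± 2.16 in KO and 4.72% ± 3.85 in WT (SD, n = 2 each), so that the difference shrank to 1.19 percentage points (exact permutation test, p = 1). Intervals cover counting error only. WT and KO shared 1 cell barcode in set 1 and 12 in set 2.

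The gate fell between separated groups of cells. Between 5% and 10% lay 4, 11, 5 and 30 cells of WT set 1, WT set 2, KO set 1 and KO set 2, and 5, 13, 6 and 13 cells lay between 10% and 20%. The summed level of 8 Paneth markers was 113 to 148 times higher over the gate than under it, with 7 or 8 of the 8 markers higher in each library; Lyz1 itself is part of the gate. Of the 8 markers each of enteroendocrine, tuft, cycling, enterocyte and stromal cells, 0 were higher over the gate in any library. The same held for the T and B lymphocyte markers. Myeloid markers are on 9 gene identifiers, of which 1, 3, 2 and 1 were higher in WT set 1, WT set 2, KO set 1 and KO set 2, and their summed level was 0.84, 0.39, 1.70 and 0.18 times that under the gate. Of 8 goblet markers 1 was higher, and their summed level was 0.38 to 0.85 times that under the gate. Of 8 stem cell markers 1, 6, 0 and 3 were higher in WT set 1, WT set 2, KO set 1 and KO set 2; their part in the defensin values was not tested. Cells over the gate had median UMI counts of 70350, 62696, 66934 and 37815 in the same order, against 15943, 5980, 15413 and 13620 under it.

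**Figure D4:**
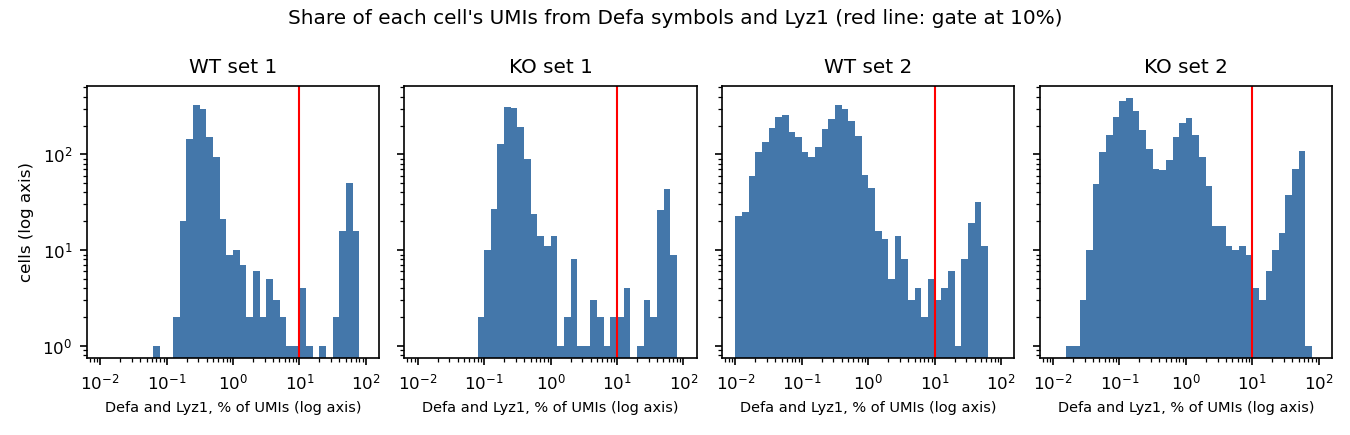
Number of cells (log axis) by the percent of their UMIs from Defa symbols and Lyz1 (log axis, the first bin at 0.01% also holds lower values) in the 4 single-cell libraries, with the gate at 10%. A separate group lies over the gate in each library, and in set 2 the cells under it form a pair of peaks.

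The 13 Defa symbols made up 49.3%, 33.8%, 48.0% and 41.3% of all UMIs over the gate in WT set 1, WT set 2, KO set 1 and KO set 2. With the 15 further alpha-defensin genes that carry other symbols the totals were 74.8%, 54.1%, 72.6% and 61.1%, which makes most of the RNA counted in these cells defensin RNA. Defa24 alone was at 280929, 246707, 283694 and 306072 CPM (counts scaled to a common library total) in the same order. It was 57.0% and 59.1% of Defa UMIs in the 2 libraries of set 1 and 72.9% and 74.2% in set 2. The median cell over the gate held UMIs of 9 to 11 of the 13 members.

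The knockout was set against wild type, the comparison that the series' title names. The cells were chosen by their Defa symbols and Lyz1, so the gate bounds the summed level of these genes. Defa24 is the largest part of that sum. The absence of a call for Defa24 or Lyz1 is limited by that choice. Defa24 was at 294883 ± 15824 CPM in KO and 263818 ± 24199 CPM in WT (SD, n = 2 each; edgeR log2 difference 0.16, adjusted p = 1.00). The KO values were the 2 highest, by a margin smaller than the spread between WT libraries. Defa23 had a log2 difference of 0.41, Defa20 of -0.19 and Defa5 of -0.50, with adjusted p of 1.00 in each case by edgeR's quasi-likelihood test. By edgeR 0 of 12 tested members were called over the gate, beside 0% of 8707 genes, and 0 of 12 had an unadjusted p under 0.05, beside 0.827% of genes; DESeq2 also called 0 of 12. The members' median was -0.13, beside 0.01 for all genes. With the set as a block 0 of 12 were called, beside 0.0804% of 8707 genes. The members' median was then 0.12, above instead of below 0. Lyz1 (0.19), Mmp7 (0.23), Ang4 (0.05), Itln1 (0.15) and Mptx2 (0.61) were not called either (adjusted p = 1.00 each by edgeR). Another gate used no Defa gene but Lyz1, Mmp7, Ang4, Mptx2 and Itln1, at 2% or more of UMIs. There 0 of 12 members were called by edgeR, beside 0% of 8846 genes, and the members' median was -0.20.

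Several members differed more between the sets than between the genotypes. Defa20 was at 49430 (WT) and 46451 (KO) CPM in set 1 and at 3649 and 3268 CPM in set 2, 13.9 times higher in set 1. Defa17 was at 8362 and 8130 CPM in set 1 and 746 and 797 CPM in set 2, and Defa5 at 121 and 91.7 against 9.55 and 7.72 CPM, 12.3 times higher. In the other direction, Defa27 (Gm15299 in these files) was at 1081 and 865 CPM in set 1 and 11679 and 12513 CPM in set 2, 12.4 times higher in set 2, and Defa35 (Gm10104) at 1467 and 1069 against 9449 and 6068 CPM, 6.12 times. In each case the sets did not overlap, and WT and KO of a set lay nearer each other than to the other set. In a fit with genotype and set, chosen after these values were seen, 9 of 12 tested Defa symbols were lower in set 2 by edgeR, beside 4.04% of 8707 genes lower and 5.81% in either direction, and 0 were higher. Scaled by total UMIs alone, 6 of 12 were called lower, beside 1.25% of genes. Defa24 differed by -1.02 with edgeR's usual TMM scaling and by -0.04 by total UMIs (adjusted p = 0.35 and 0.93).

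The share of own windows was set beside these differences. Of the members with over 90% own windows, Defa24, Defa30 and Defa26 had CPM in set 2 at 0.98, 0.79 and 0.82 times those in set 1. Among alpha-defensins with other symbols and 93.8% own windows, Gm15292 stood at 1.13 and Gm15293 at 1.61 times. Of members with at most 1 own window, Defa20 stood at 0.072, Defa5 at 0.081, Defa37 at 0.13 and Defa32 at 0.15 times set 1, but Defa23 at 1.22 and Defa33 at 2.91 times. Defa35 and Defa27, which were higher in set 2, had 69.7% and 83.9% own windows, and Defa28, at 0.23 times set 1, had 70.6%. Defa25, with 22 to 103 UMIs per library over the gate, stood at 0.26 times set 1 with 51.6% own windows. Gm14851 stood at 0.56 times with 82.0%. Differences of several-fold thus occurred at low shares of own windows and at shares from 51.6% to 83.9%, but not for every gene at such shares. Defa2 had 1 UMI over the gate in WT set 2 and 0 in the other 3 libraries, while in the mRNA table it was at 676 to 55142 normalized counts. The sets also differed in the number of barcodes (1209 and 1251 in set 1, 7711 and 7665 in set 2), and set and barcode number cannot be told apart.

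**Figure D5:**
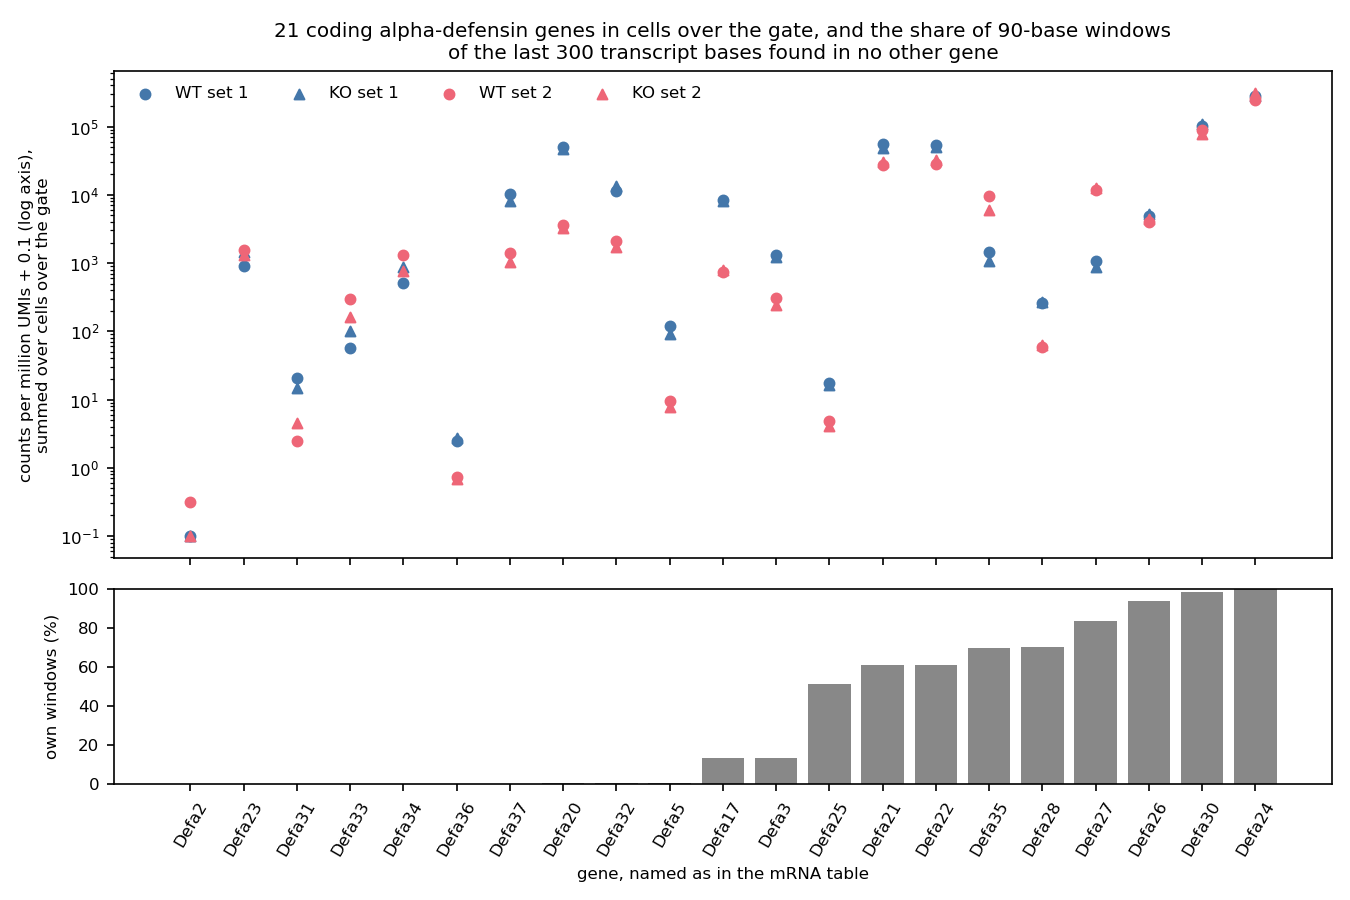
Upper panel: CPM plus 0.1 (log axis) of 21 coding members summed over cells over the gate, in WT (circles) and KO (triangles) of set 1 (blue) and set 2 (red); lower panel: percent of 90-base windows of the last 300 transcript bases found in no other gene. Defa20 falls from 49430 and 46451 CPM in set 1 to 3649 and 3268 CPM in set 2, while Defa24 hardly moves. Genotypes of a set lie together for Defa20 but not for every member. Defa34 is at 516 (WT) and 879 (KO) CPM in set 1 and at 1320 and 769 CPM in set 2.

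Under the gate, Defa symbols made up 0.39%, 0.14%, 0.32% and 0.23% of UMIs in WT set 1, WT set 2, KO set 1 and KO set 2. A Defa UMI was found in 99.6% to 100% of these cells. With each cell thinned to 1000 UMIs the share was 95.2%, 67.9%, 90.8% and 76.2%. Cells with at least 5 UMIs of T lymphocyte markers, which should lack defensins, were at 2997, 3344, 2768 and 6428 Defa CPM and 100%, 92.9%, 93.9% and 98.0% of them held a Defa UMI after thinning. Their median depths were 14472, 2906, 13325 and 2137 UMIs. The share of cells with a Defa UMI after thinning was lower over all cells under the gate than in these T lymphocyte-marker cells in each library. The Defa CPM over all cells under the gate was 3857 and 3163 in WT and KO of set 1, above those T lymphocyte-marker cells, and 1413 and 2289 in set 2, below them. No expression outside the gate is read from these values. By edgeR 0 of 10 members tested under the gate were called between KO and WT, beside 0% of 13556 genes; 0 of 10 had an unadjusted p under 0.05, beside 0.583% of genes, and DESeq2 called 0 of 10.

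The make-up of these low levels differed between classes. Defa24 was 74.8%, 72.8%, 74.9% and 73.3% of Defa UMIs in the cells with T lymphocyte markers, and 71.0%, 71.8%, 73.4% and 74.8% in those with enterocyte markers. In cells with goblet markers it was 84.6%, 94.1%, 83.1% and 90.5%, above both other classes in each of the 4 libraries. Goblet-marker cells held 7073, 2768, 5531 and 3533 Defa CPM and enterocyte-marker cells 3141, 385, 2858 and 998. These are levels pooled over cells. After thinning, 97.1%, 51.8%, 92.4% and 71.5% of goblet-marker cells held a Defa UMI. For enterocyte-marker cells it was 95.1%, 39.4%, 92.3% and 58.9%. In set 1 the share of Defa24 in T lymphocyte-marker cells (74.8% and 74.9%) was above that over the gate (57.0% and 59.1%), whereas in set 2 both lay within 72.8% to 74.2%. Cells with 2 types of RNA by doublet formation were not removed, and their part in these values was not tested.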

How the data were processed

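The mRNA values are normalized counts (a signal unit) deposited by the authors; the submitters' processing notes name Cell Ranger, STAR, Salmon, DESeq2 and mm10 without roles. The mRNA kits, SMARTer for low input followed by Nextera XT, are those of the labels. The single-cell files are deposited UMI counts per gene and cell from 10x Chromium libraries, per the labels. Members and gene lists were chosen with earlier results of these data known.

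In the mRNA table, 381 of 48440 rows had no gene name and were left out. Log2(value + 1) of genes with a mean of at least 10 in the compared groups was fitted with limma 3.58.1 (trend, R 4.3.3), for the 2 compared groups alone, with Benjamini-Hochberg adjustment over all genes tested and a call at 0.05. The normalized values did not all resolve into whole reads, so no count test was run. The value of 1 read was estimated for each library. It was 0.854, 1.07, 1.19 and 0.729 normalized counts in the CV mice and 1.46, 1.06, 1.57 and 1.12 in the GF mice. Read depth estimated from it was lowest in GF mouse 3 and highest in chow mouse 2. The part of depth in the defensin values was not tested. A barcode counted as a cell from 500 genes and 1000 UMIs upwards, if mitochondrial genes held less than 25% of its UMIs. UMIs were summed per library over and under the gate and tested with edgeR 4.0.16 (TMM, quasi-likelihood) with DESeq2 1.42.0 as an alternative. Both fits were tested on simulated data. Coding ends and windows come from GENCODE M21 and promoters from RefSeq. The set joins a WT and a KO library, whose deviations from the genotype means correlated at 0.54.

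Named genes were the 8 members with the highest mean, each called member, the tested members with the largest rise and fall, in single cells the 8 with most UMIs per set, 5 Paneth genes, called genes of 3 lists (Paneth granule proteins, Paneth cell formation and secretion, other gut antimicrobials) and the 10 genes most like the summed defensin level. The values of 1 gene are not reported here by name. Other genes in the text were chosen after their values were seen.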

Additional observations from a re-analysis of the deposited data

How the results depend on the processing

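The counts of called members stayed at 0 in the 3 mRNA comparisons under each other pseudocount, filter, scaling and fit. Leaving out each mouse in turn gave 0 to 1 in HFD vs chow (1 without chow mouse 2) and 0 to 0 in GF vs CV and CV vs chow, and both single-cell comparisons stayed at 0. The planned removal of likely doublets gave no value, since it marked 90, 84, 90 and 256 of the cells over the gate. An added rule with a marker share of 2% marked 13, 26, 13 and 16. Counts of members with shares that do not overlap ran from 17 to 19 in GF vs CV, 5 to 15 in HFD vs chow and 4 to 7 in CV vs chow when each mouse was left out; in HFD vs chow they were 1 with the mice 3 exchanged and 15 without both. The exchange in HFD vs chow and CV vs chow, the other treatment of mice 3, the number series, total-UMI scaling, the set contrast and the added doublet rule were chosen after seeing the data.

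Replicate numbers did not pair the mice: correlations of same-numbered deviations ran from -0.35 to 0.46. With the replicate block in limma 0 members were called in each mRNA comparison, and 494, 271 and 165 genes in GF vs CV, HFD vs chow and CV vs chow against 453, 135 and 17 without it. With the set as block in edgeR 0 members were called over and under the gate, beside 0.0804% and 0% of genes. Over the gate the log2 differences turned sign for Defa21 (0.085), Defa22 (0.19), Defa20 (0.0043) and Defa17 (0.15). Under the gate they turned for Defa21 (0.11), Defa20 (0.31), Defa17 (0.18) and Defa3 (0.22).

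Other sign changes concerned differences that were not called. In GF vs CV they were Defa30 (0.13) and Lyz1 (0.022) with quantile normalization and Defa23 (-0.023) with median-of-ratios rescaling. In HFD vs chow Defa20, Defa22 and Defa2 were at -0.52, -0.55 and -0.55 with the mice 3 exchanged and at -0.0078, -0.20 and -0.051 without them. In CV vs chow without the chow mice of the 180s, Defa24 (0.42), Defa30 (0.33), Defa17 (0.24), Defa20 (1.07), Defa31 (0.36), Defa23 (0.44), Defa22 (0.81), Defa2 (1.07), Lyz1 (0.26), Ang4 (0.69) and Itln1 (0.47) turned. In KO vs WT over the gate these were Defa22 (0.031) by total UMIs, Ang4 (-0.075) with a gate of 20%, Ang4 (-0.042) with a gate that uses no Defa gene, and Defa17 (0.031) without likely doublets. Under the gate they were Defa24 at 5% (-0.033) and at 20% (-0.12), Defa22 (-0.32) and Defa26 (-0.041) at 20%, and Defa21 (0.19) with all barcodes. Between sets Defa23 was at 0.33 by total UMIs. The causes were not tested.

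Leaving out 1 library at a time turned further signs; in single cells the lone library is then assumed to vary like the other genotype. In GF vs CV these ranges were, on the log2 scale, Defa24 -0.53 to 0.32, Defa30 -0.53 to 0.33, Defa17 -0.31 to 0.60, Defa31 -0.17 to 0.62, Defa23 -0.34 to 0.45, Lyz1 -0.54 to 0.083 and Itln1 -0.66 to 0.079. In HFD vs chow these ranges were, on the log2 scale, Defa20 -0.29 to 1.22, Defa22 -0.44 to 0.99 and Defa2 -0.28 to 1.21. In CV vs chow these ranges were, on the log2 scale, Defa2 -1.49 to 0.0024 and Mptx2 -0.36 to 0.77. In KO vs WT, cells over the gate these ranges were, on the log2 scale, Defa24 -0.38 to 1.04, Defa21 -1.01 to 1.38, Defa22 -0.86 to 1.43, Defa20 -3.81 to 3.85, Defa17 -3.30 to 3.64, Defa26 -0.43 to 1.11, Defa3 -2.39 to 2.26, Defa23 -0.090 to 0.78, Lyz1 -0.28 to 0.89, Ang4 -0.54 to 1.04 and Itln1 -0.086 to 0.44. In KO vs WT, cells under the gate these ranges were, on the log2 scale, Defa24 -0.52 to 0.98, Defa21 -0.52 to 0.74, Defa22 -0.36 to 0.85, Defa20 -2.97 to 3.69, Defa17 -2.69 to 3.12, Defa26 -0.21 to 1.00, Defa3 -2.33 to 3.09 and Defa23 -0.24 to 1.08.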

Other observations

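RefSeq names 6 further genes of these files as alpha-defensins that carry other symbols here, and their mRNA levels covered much of the members' range. Gm7849 (Defa42 by RefSeq) was at 2475 to 82803 normalized counts, AY761184 (Defa39) at 2409 to 63310, Gm14851 (Defa38) at 2712 to 54802 and Gm7861 (Defa43) at 2927 to 43438. Gm15293 (Defa41), at 113 to 4997, and Gm15292 (Defa40), at 56.3 to 1989, were lower. In cells over the gate AY761184 was at 65806 and 54793 CPM in the WT and KO libraries of set 1 and at 57387 and 59703 CPM in set 2, while Gm7861 was at 2296 and 1887 CPM in set 1 and 172 and 165 CPM in set 2. All windows of AY761184 and 8.53% of those of Gm7861 were found in no other gene.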
